A study of Macaca mulatta with 23 samples.

Results

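The zinc-finger gene clusters of chromosome 19 were described through 1588 CpG positions measured in 23 rhesus monkeys, in tissue of the central amygdala nucleus, out of 444312 positions in the whole table. The positions were taken by their coordinates and not by their levels, although the clusters were chosen with earlier results of these data known. They lie on chromosome 19 of the human build hg19, on which the deposited table gives its coordinates, inside 5 intervals known for KRAB zinc-finger genes. Each interval is named here by the chromosome band that holds most of its runs of neighbouring positions, although 3 of them reach into the next band. The 19p12 cluster (19.7 to 24.5 Mb) held 402 positions and the 19q13.12 cluster (36.5 to 38.4 Mb) 306. The 19q13.31 cluster (44.3 to 45 Mb) held 22, the 19q13.41 cluster (52.5 to 54 Mb) 132 and the 19q13.43 cluster (57.7 to 59.1 Mb) 726. The remaining 36395 positions of the chromosome served for comparison.

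DNA methylation had been measured by reduced representation bisulfite sequencing, in which MspI cuts DNA into CpG-rich fragments and bisulfite separates methylated from unmethylated cytosines. All animals were Macaca mulatta, aged 1.1 to 2.13 years, with 1 library each; the sample came from the left hemisphere in 11 and from the right in 12. Each had a score of anxious temperament, a continuous trait of young primates, between -1.48 and 1.43, and no treatment or genotype is given in the labels. Monkeys are called here by hemisphere and a number that is only a name. A tissue sample of this kind mixes neurons and glia, so a level is an average over cell types, and fewer cells of a type cannot be told apart from a change within them.

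KRAB zinc-finger proteins make up the largest family of DNA-binding repressors in primates. Their KRAB domain recruits the corepressor TRIM28, which brings in enzymes that methylate histone H3 at lysine 9, and many members bind transposable elements. The genes arose by repeated local duplication, so a cluster holds many related copies, each with a promoter that is often a CpG island and a last exon that encodes a tandem array of fingers. In the RefSeq gene table of the macaque, 188 of 464 protein-coding symbols that begin with ZNF, ZSCAN, ZKSCAN or ZFP were on chromosome 19 (40.5%), against 7.01% of all protein-coding genes. That table belongs to another build and was used for this count only, so the positions below carry coordinates and no gene names.

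Measured positions were thin in the clusters. There were 154 per Mb over the 10.3 Mb of the clusters and 745 per Mb over the rest of the chromosome, whose length includes the centromere. The 19q13.43 cluster was the most densely covered, at 519 per Mb, and 19q13.31 the least, at 31.4 per Mb. Values were missing for 8.99% of the cluster measurements and 7.63% of those elsewhere on the chromosome. Across monkeys the missing share in the clusters ran from 1.13% (Left 7) through a median of 3.78% to 56.1% (Left 3). Read depth is unknown, since the table gives levels and no counts.

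Cluster DNA was mostly either low or high in methylation, and the clusters differed in their mix. Averaged over monkeys, 45.3% of the 1588 positions stood below 20%, 27.7% at intermediate levels from 20% up to 80%, and 27.0% at 80% or more. The corresponding shares in the rest of the chromosome were 50.1%, 23.5% and 26.4%. In 19p12, 42.5% of positions stood at 80% or more and 36.3% under 20%. In 19q13.41 the order was the opposite, with 14.4% at 80% or more and 62.9% under 20%. The 19q13.12 and 19q13.43 clusters lay between these, with 28.1% and 20.2% at 80% or more.

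**Figure D1:**
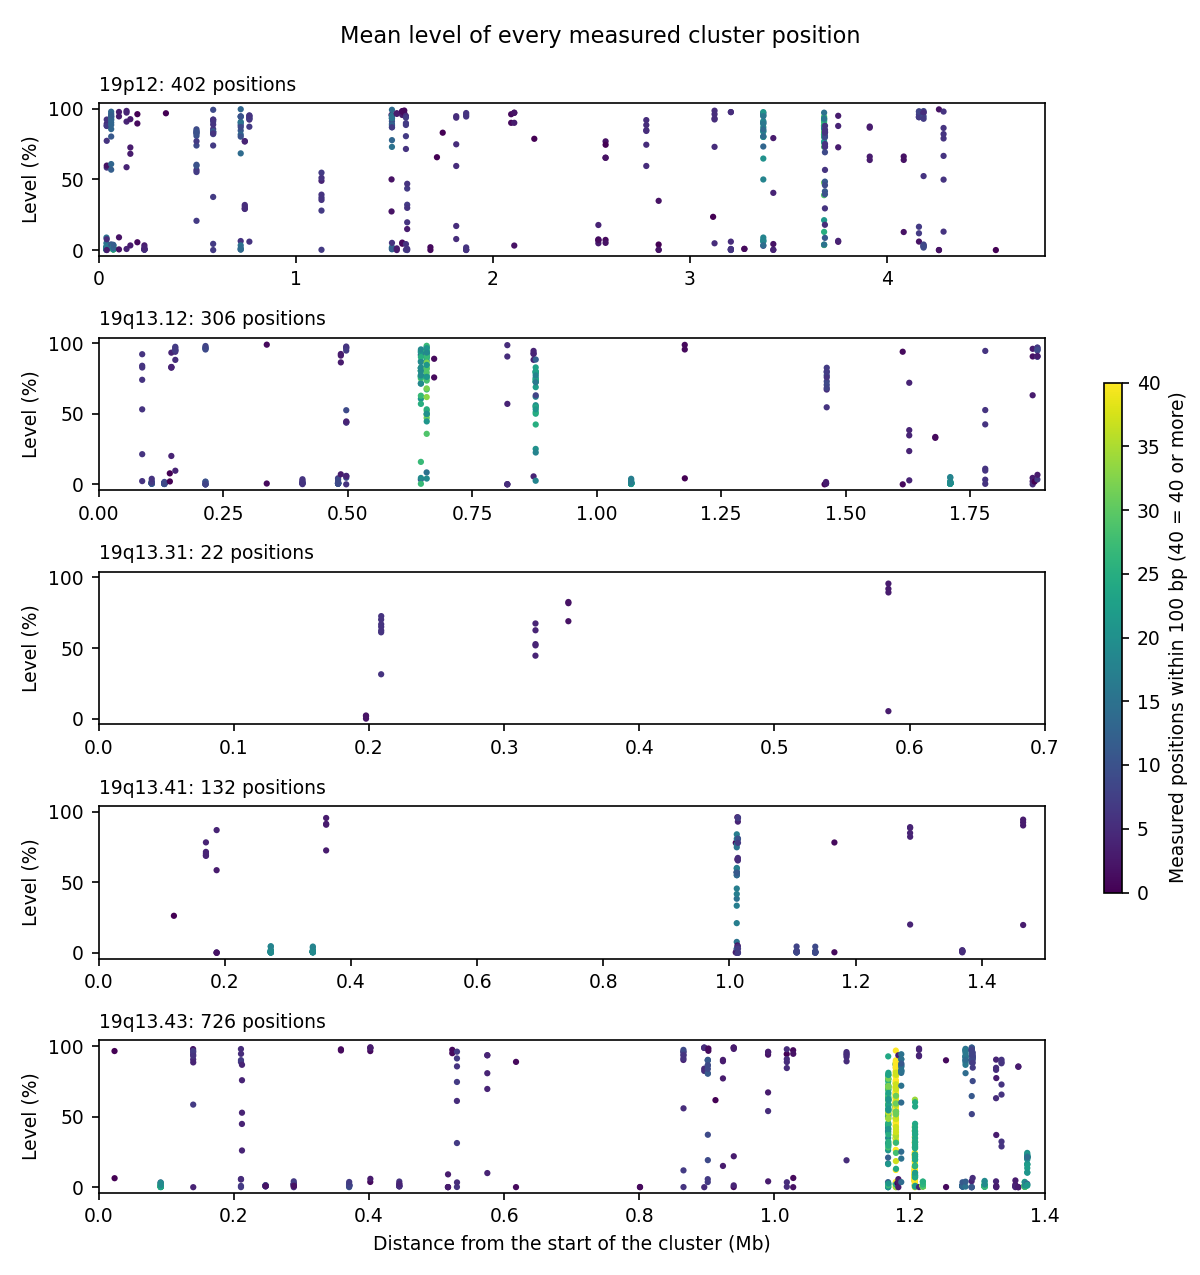
Mean methylation level over monkeys (vertical axis, %) of each of the 1588 cluster positions against its distance from the start of the cluster (horizontal axis, Mb), coloured by the number of measured positions within 100 bp. Positions form narrow stacks separated by long unmeasured stretches, and the densest stacks, in 19q13.43 near 1.2 Mb, hold many intermediate levels.

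Because methylation falls as CpG density rises, each cluster was compared with other chromosome 19 positions weighted to the same density, counted as the number of measured positions within 100 bp. The 19p12 cluster was more methylated than the matched positions. Its level ran from 50.9% (Right 12) through a median of 52.1% to 53.2% (Right 4), and the matched level from 41.3% (Right 11) through 42.7% to 43.7% (Left 4). The ranges did not overlap. The mean difference was 9.38 percentage points ± 0.650 (SD, n = 23), higher in 23 of 23 monkeys (2-sided sign-flip permutation test over monkeys, adjusted p = 2e-05 over 6 cluster comparisons). Here and in the sign-flip tests below, the positions were held fixed. Such a p measures how steady a difference was over monkeys, not the variation between positions or runs. Over the positions with a value in all monkeys, 70 of the 402, the difference was 1.89 points, and against the other autosomes it was 15.8.

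The 19q13.41 cluster was less methylated than its matched positions. Its level ran from 23.7% (Right 12) through a median of 27.5% to 30.4% (Left 4), and the matched level from 41.8% through 43.1% to 44.1%. Again the ranges did not overlap. The difference was -15.95 points ± 0.981 (SD, n = 23), with 0 of 23 monkeys higher (sign-flip permutation, adjusted p = 2e-05). It was -25.2 points over the positions with a value in all monkeys and -10.1 against the other autosomes. The gap between the 19p12 difference and the 19q13.41 difference, a comparison added after the values were seen, was 25.3 points ± 1.16 (SD, n = 23) in the same direction in 23 of 23 monkeys (sign-flip permutation, p = 1e-05, the smallest the 100000 resamples can give). The 19p12 difference was positive and the 19q13.41 difference negative in every monkey. The direction and p of the gap therefore followed from those differences and add no evidence. The gap stayed between 24.9 and 34.2 points in the 9 alternative settings tried, where those differences also kept their sign.

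Much of 19q13.41 lay in short runs of low positions. Neighbouring positions no more than 200 bp apart were joined into runs, and runs of at least 10 positions were examined. In 19q13.41, 4 such runs had a mean level under 5% and together held 60 of the 132 positions (45.5%). In 19p12, 2 such runs held 49 of 402 positions (12.2%), both of them at the end of the interval that lies in band 19p13.11. The share was 29.7% in 19q13.12, in 5 runs, and 24.2% in 19q13.43, in 8 runs. In the rest of the chromosome, 362 of 1174 runs of at least 10 positions had a mean under 5%, against 19 of 47 in the clusters. The share of positions in those 362 runs was not computed. At 5 to 9 neighbours within 100 bp, the 19q13.41 positions averaged 12.8% ± 1.23 (SD, n = 23), those of 19p12 57.3% ± 1.37 and those of the rest of the chromosome 46.4% ± 0.740. These n count monkeys, and the means rest on 39, 146 and 7114 positions. Of the 39 in 19q13.41, 84.6% had a mean under 20%. At 0 to 4 neighbours the 19q13.41 level was 59.3% ± 2.66 over 33 positions, above the 45.2% ± 0.910 of the rest over 3739.

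The other clusters gave smaller or less stable differences. The 19q13.12 cluster ran from 38.8% (Left 11) through 41.2% to 42.6% (Left 3), and exceeded its matched level by 0.741 points ± 0.838 (SD, n = 23) in 19 of 23 monkeys (sign-flip permutation, adjusted p = 0.000528). With the neighbouring cytosines of both strands merged into 1 CpG, that difference was -1.58. The 19q13.43 cluster ran from 33.8% (Left 10) through 36.8% to 38.9% (Left 4) and differed from its match by 0.128 points ± 1.15 (SD, n = 23; adjusted p = 0.596 by sign-flip permutation), higher in 12 of 23 monkeys. Without its 3 largest runs the difference was -6.53 points.

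The 19q13.31 cluster rested on 22 positions in 5 runs and was the most variable. It ran from 26.6% (Right 12) through 55.9% to 67.5% (Right 3), and its matched level from 44.0% through 45.7% to 47.4%. Right 12 stood far below the other monkeys, and the ranges overlapped. At the 15 positions with 0 to 4 neighbours, 21 of the 23 monkeys had values. The level of the monkeys without values there rested on the 7 other positions at most. The difference was 9.50 points ± 7.89 (SD, n = 23), higher in 22 of 23 monkeys (sign-flip permutation, adjusted p = 7.5e-05), and 10.7 without Right 12.

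All 5 clusters together ran from 39.1% (Left 10) through 40.9% to 42.5% (Left 4), against 38.4% (Right 11) through 39.6% to 40.3% (Left 7) for the matched positions. The difference of 1.40 points ± 0.588 (SD, n = 23) was positive in 23 of 23 monkeys (sign-flip permutation, adjusted p = 2e-05). It reversed to -3.88 points over the positions with a value in all monkeys, 475 of the 1588, and to -0.515 without the 3 largest cluster runs. The pooled direction thus depended on which positions were counted, whereas those of 19p12 and 19q13.41 kept their sign in each of their 9 alternatives.

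**Figure D2:**
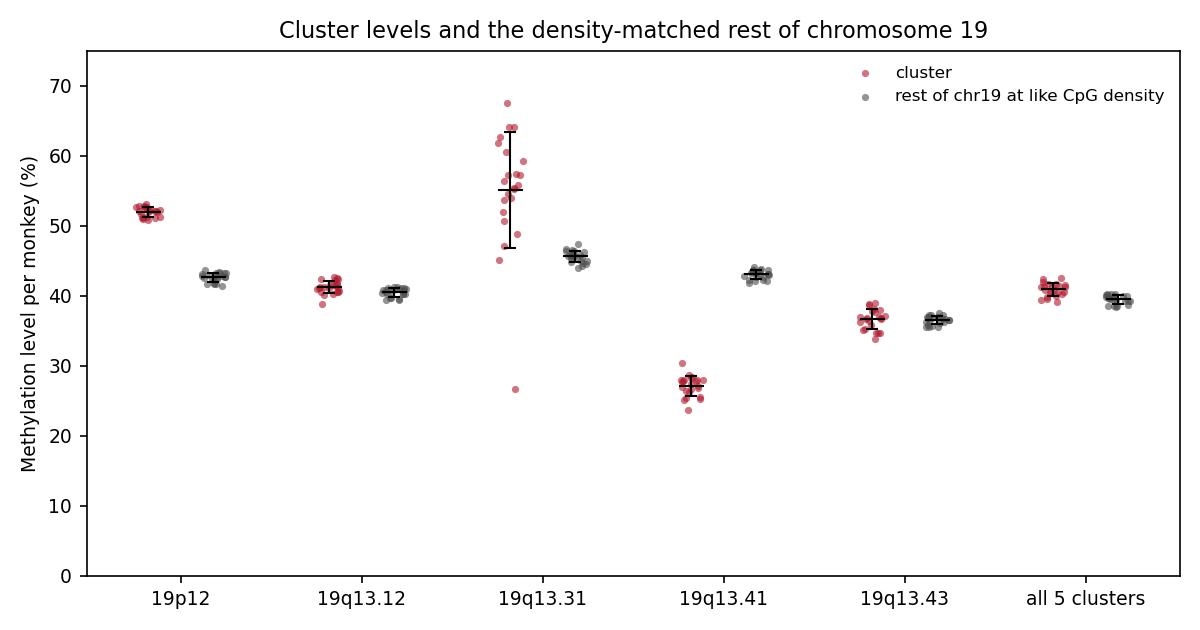
Methylation level per monkey (vertical axis, %) in each cluster (red) and in other chromosome 19 positions weighted to the same CpG density (grey); bars are mean ± SD over 23 monkeys. The 19p12 monkeys (50.9 to 53.2%) all lie above their matched values and the 19q13.41 monkeys (23.7 to 30.4%) all below.

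Among CpG-dense positions, those with 20 or more neighbours within 100 bp, high methylation was less frequent in the 5 clusters pooled. The share of dense cluster positions at 80% or more ran from 9.77% (Right 11) through 13.13% to 23.3% (Right 9), against 20.2% (Left 10) through 21.3% to 25.2% (Right 9) elsewhere on the chromosome. Right 9 was highest in both. The difference was -8.20 points ± 2.13 (SD, n = 23), with 0 of 23 monkeys higher (sign-flip permutation, p = 1e-05). Against the other autosomes, where dense DNA was less methylated than on chromosome 19, the difference was 5.22 points in the other direction. Dense positions were unevenly shared among the clusters, since 59.2% of the 19q13.43 positions were dense, 13.7% of those in 19p12 and 0% of those in 19q13.41. The lower share did not hold in each cluster. At 20 to 39 neighbours, 30.9% of the 19p12 positions and 24.5% of the 19q13.12 positions had a mean of 80% or more, against 22.2% in the rest of the chromosome, and 2.54% of those in 19q13.43. At 40 or more neighbours, where only 19q13.43 had positions, its share was 6.09% against 13.8%. These shares per cluster are a description and were not tested.

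Runs of at least 10 positions numbered 47. Of these, 21 had a mean under 20%, 23 a mean between 20% and 80%, and 3 a mean of 80% or more. The lowest run above 20% stood at 44.2%, and the highest below it at 17.0%. In the rest of the chromosome the corresponding counts were 477, 603 and 94 of 1174 runs. Of the 21 low cluster runs, 19 were under 5%, against 362 of the 477 low runs in the rest of the chromosome.

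The largest runs all lay in 19q13.43 and were intermediate or variable. The run at chr19:58879373-58879903 held 119 positions and ran from 45.9% (Right 3) through a median of 55.0% to 72.2% (Right 9), with a mean of 55.5% ± 6.38 (SD, n = 23). Only 10.9% of its positions stood at 80% or more and 10.1% under 20%, so most of its positions were intermediate themselves. A second run, chr19:58868125-58868629 with 73 positions, ran from 30.3% (Right 6) through 49.9% to 60.4% (Left 4), with a mean of 50.4% ± 6.95 (SD, n = 23). Left 4 had values at 14 of the 73 positions, and the highest of the 20 monkeys with values at 50% or more of them was Left 9, at 58.6%. A lower one, chr19:58907638-58908144 with 108 positions, averaged 16.7% ± 5.12 (SD, n = 23), and 15 of its positions had an SD over monkeys of 20 points or more. These 3 runs held 300 of the 726 positions of the cluster.

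The runs of 20 or more positions with the highest levels reached 66.0 to 72.9%. The highest, at chr19:58991795-58992077 in 19q13.43, held 20 positions and averaged 72.9% ± 2.31 (SD, n = 23). The 18 monkeys with values at 50% or more of its positions ran from 69.2% (Left 11) through 72.55% to 75.7% (Left 10). Its median position stood at 93.9%, while 20% of its positions were under 20%, so its mean joins high positions with a few low ones. Next came chr19:37158644-37158846 in 19q13.12, with 36 positions, at 72.4% ± 4.76 (SD, n = 23). In 19p12 the 34-position run chr19:23380412-23380603 stood at 72.2% ± 2.93 (SD, n = 23). Another run of 19q13.12, chr19:37146992-37147183, averaged 69.9% ± 2.19 and that at chr19:23071913-23072116 in 19p12 66.0% ± 2.21 (SD, n = 23). None of the 20 cluster runs of this size had a mean of 80% or more, against 50 of 560 in the rest of the chromosome (8.93%).

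The largest run of 19q13.41, at chr19:53511570-53511793 with 22 positions, was not among that cluster's low runs, nor was chr19:53513447-53513628 with 12 positions, at 55.3%. The first ran from 25.4% (Right 12) through 45.1% to 54.5% (Left 4), with a mean of 44.2% ± 6.51 (SD, n = 23). The largest run of 19q13.31, at chr19:44508995-44509065, held 7 positions and ran from 32.1% (Right 12) through 65.6% to 80.5% (Left 4), with a mean of 62.4% ± 13.9 (SD, n = 23). Right 12 was the lowest monkey in both, and in the 19p12, 19q13.31 and 19q13.41 levels above. The 19q13.31 and 19q13.41 levels include these runs. In 19q13.12 the 26-position run chr19:37377611-37377789 had the widest range of that cluster's large runs, from 46.7% (Left 11) through 63.8% to 78.6% (Left 3). Left 3 had values at 8 of its positions, and the highest of the 22 monkeys with values at 50% or more of them was Left 4, at 75.1%.

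The run at chr19:59074050-59074198, 23 positions near the end of 19q13.43, had the widest range between monkeys among the 20 cluster runs of 20 or more positions. Shorter runs spread more, as at chr19:57912002-57912092 with 5 positions, where the SD was 18.0 points (n = 21). In the 23-position run the level was 1.74% in Right 4, 3.04% in Left 4, 3.17% in Left 8, 3.87% in Left 2, 4.43% in Right 3 and 6.51% in Right 9. It was 29.1% in Right 5, 29.2% in Left 11, 30.04% in Left 9, 35.0% in Right 7 and 38.8% in Left 7. The 10 other monkeys with values lay between 9.04% and 25.7%, and Left 3 and Left 6 had none. The values were spread over this whole range, with a mean of 17.0% ± 11.4 (SD, n = 21).

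The positions of that run moved together. The median correlation between its positions across monkeys was 0.749 over 253 pairs of positions, which share reads and are given as a description. In the largest run, at chr19:58879373-58879903, the same median was 0.155. Medians were higher, over fewer pairs, at chr19:37569305-37569433 (0.946, 10 pairs), chr19:19774080-19774249 (0.894, 15 pairs) and chr19:59010926-59011051 (0.779, 2 pairs). These runs were near 0, with means of 1.06%, 1.14% and 1.08%, and only their more variable positions entered the pairs. Right 9 stood apart in the first, at 3.54% with Right 10 next at 2.23%. It did so in the second as well, at 4.84% with Left 9 next at 2.19%. The median of these medians was 0.234 over the 11 cluster runs of 20 or more positions under 20%. In the rest of the chromosome it was 0.0247, with a highest of 0.985, and for runs at 20 to 80% 0.0865, with a highest of 0.810. High values thus also occurred in other runs. Of the 11 cluster runs of 20 or more positions with a mean under 20%, only the widest-ranging reached an SD of 10 points. The median SD of the 11 was 0.656. In the rest of the chromosome 1 of 274 such runs reached that SD, and their median was 0.820. Most of these runs, 9 of the 11 and 221 of the 274, had a mean under 5%, which leaves little room for such an SD. At means of 20 to 80% it was reached by 0 of 9 cluster runs and 17 of 236 runs elsewhere, up to 14.97. The widest-ranging run averaged 17.0%, so runs near 0 are a poor measure of how rare its SD is. Its slope against the anxious temperament score was 2.44 points per score unit ± 3.29 (SE; limma p = 0.466, adjusted p = 1 over 21253 runs).

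**Figure D3:**
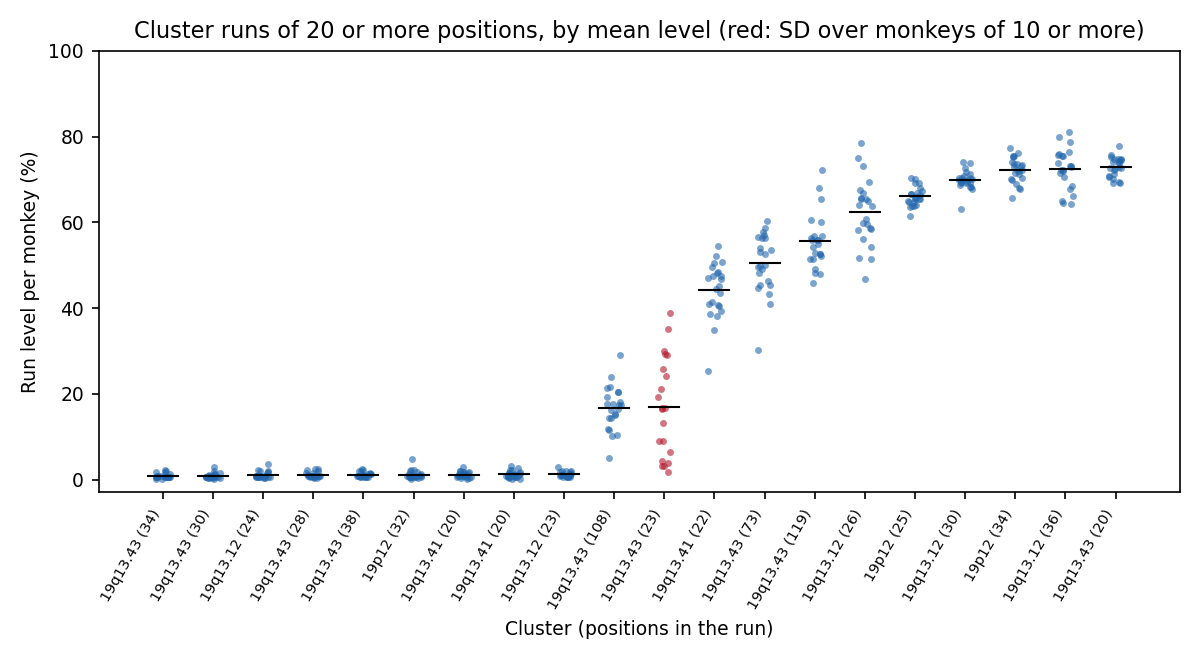
Level per monkey (vertical axis, %) in the 20 cluster runs of 20 or more positions, ordered by mean level (black bars); labels give the cluster and the number of positions. The first 9 runs lie near 0 in every monkey, while the 23-position run of 19q13.43 (red) extends from 1.74% to 38.8%.

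Whether levels spread more between monkeys in the clusters than elsewhere at like level and density depended on the setting. The mean absolute deviation of a monkey from the other monkeys ran from 5.13 points (Left 8) through 5.91 to 11.5 (Right 9) in the clusters, and from 4.82 (Left 9) through 5.47 to 13.9 (Right 9) in the matched positions. The difference of 0.133 points ± 0.779 (SD, n = 23) did not pass the test (sign-flip permutation, p = 0.434), and was positive in 16 of 23 monkeys. Without Left 3 and Right 9, the libraries with most missing values, it was 0.354 and did pass, as did 0.206 over positions with a value in all monkeys and 0.338 with merged CpGs. Positions with an SD of 20 points or more made up 7.05% of the cluster positions (112) and 4.72% of the rest, counts that were not matched.

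The 112 wide positions were spread over 51 runs or lone positions, with 15 in the 108-position run of 19q13.43. The run at chr19:37158644-37158846 held 8 of its 36, the widest at position 37158840 with 40.97 points. There 5 of 20 monkeys were at 10% or less and 7 at 90% or more. Each of the 8 had a measured neighbour 1 bp away, the place of the other strand's cytosine in a CpG, and the neighbours' SDs ran from 6.62 to 15.1 points. At position 37158794 the SD was 38.4 points, with 8 of 18 monkeys at 10% or less, and that of its neighbour 7.83, around a mean of 81.7%. A CpG is usually methylated alike on both strands. The widest SD of all cluster positions was 43.3 points, at position 22824697 in 19p12, which has no measured neighbour 1 bp away. There 4 of 19 monkeys were at 10% or less and 14 at 90% or more.

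Some cluster runs shared the spacing of their CpGs with another run. For each pair of runs of at least 10 positions, the offsets of the positions were compared in both orientations, and a pair was called alike where the shared offsets made up at least 0.5 of all offsets in either run. Within the clusters 10 of 1081 pairs were alike (0.925%), between a cluster run and the rest of the chromosome 128 of 55178 (0.232%), and within the rest 307 of 688551 (0.0446%). The 11 cluster runs alike with another cluster run had mean levels from 44.3% to 81.0%, and 0 of them were under 20%. The same range, with 0 under 20%, held for the 13 cluster runs alike with a run of the rest of the chromosome. The feature was thus not particular to likeness within the clusters. Of the 36 cluster runs not alike with another cluster run, 21 were under 20%.

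The closest pair lay in 19p12. The runs at chr19:20420573-20420775 and chr19:21187908-21188110, both 203 bp long, shared 17 offsets in inverted orientation, of 17 and 18 positions. Their mean levels were 62.8% ± 2.00 (SD, n = 21) and 65.1% ± 2.09 (SD, n = 22). At the shared positions the levels differed by a median of 1.41 points and by under 20 points at all 17, and across these positions r was 0.996. The pattern within each run was sharp, with positions near 0 between positions above 80%, and it was the same in both. Compared within the same monkey, the paired values were equal to the percent in 83 of 344 cases (24.1%). Positions near 0 can be equal in this way without any link between the runs. The share of equal values to be had from the levels alone was not computed, for this pair or the next.

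The next pair joined different clusters. The run at chr19:23380412-23380603 in 19p12 and that at chr19:37146992-37147183 in 19q13.12, both 192 bp long, shared 28 offsets in inverted orientation. Their levels differed by a median of 5.87 points, 23 of the 28 were within 20 points, and r across positions was 0.828. Equal values were less frequent, 22 of 578 (3.81%). The 8 other pairs shared 7 to 15 offsets, and their median differences at shared positions ran from 9.83 to 70.9 points. Like spacing thus did not always go with a like level. Only the spacing was compared, so whether such runs are copies of one sequence was not tested. Nor was it tested whether their reads can be placed apart.

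**Figure D4:**
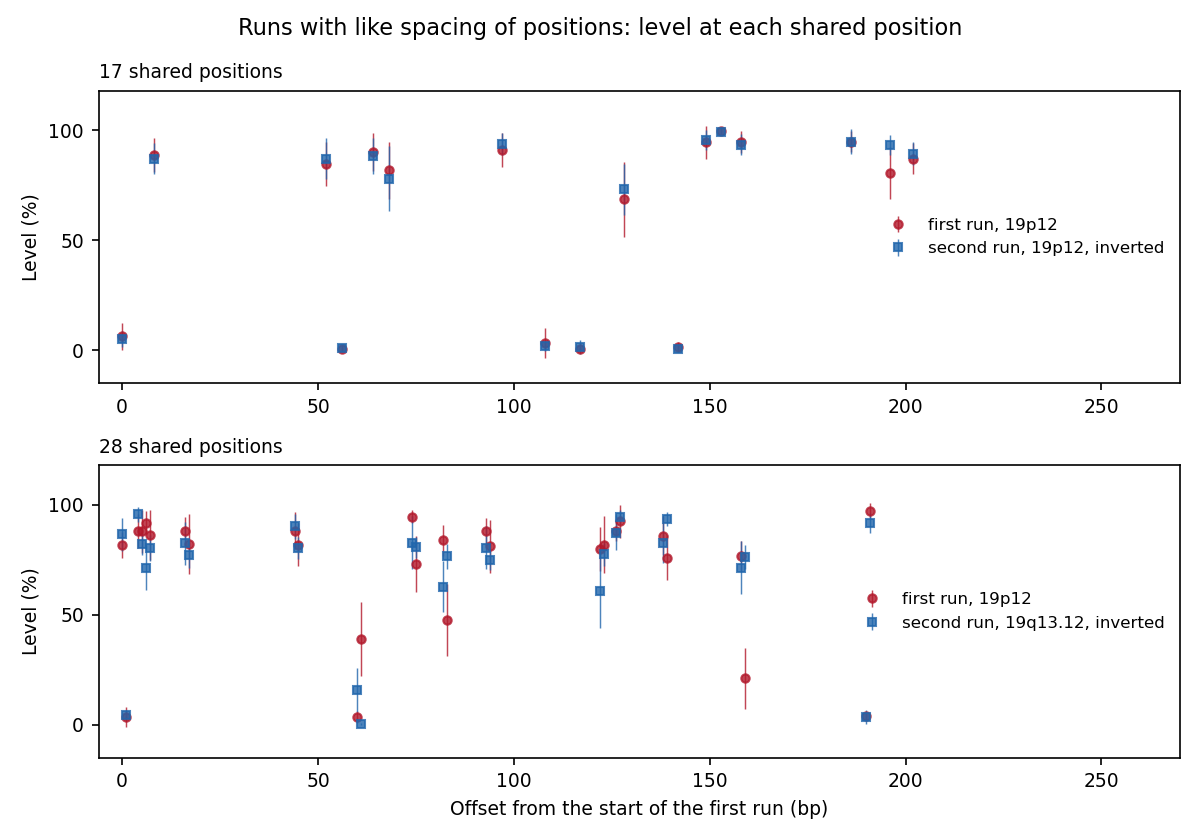
Mean level ± SD over monkeys (vertical axis, %) at each shared position of the 2 pairs of cluster runs with the most alike spacing, against the offset from the start of the first run (horizontal axis, bp), the second run being inverted. In the upper pair the levels coincide at nearly all 17 positions, and in the lower pair 5 of 28 positions differ by 20 points or more.

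A finger of the C2H2 type is encoded by 84 bases, so a distance of 84 bp was looked for between positions. In the clusters 16.8% of positions (267) had another exactly 84 bp away. The other distances from 60 to 110 bp, with 83 and 85 bp left out, gave a median of 12.0%, and 1 of them, 60 bp, gave more. In the rest of the chromosome the share was 13.5%, with a median of 13.2% taken the same way. The excess lay in few places. The 19q13.43 cluster held 217 of the 267, and its 3 largest runs 160. Without these runs the share was 8.31% against a median of 8.11%. The spaced positions averaged 40.7% ± 2.63 and the other cluster positions, weighted to their density, 31.6% ± 1.77 (SD, n = 23), a difference of 9.10 points in 23 of 23 monkeys (sign-flip permutation, p = 1e-05) that was 3.28 without the 3 largest runs.

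The ends of runs had a pattern of their own. Of the 47 cluster runs of at least 10 positions, 9 began with positions 1 bp apart of which at least 1 stood at 50% or more. In 9 of these 9 the outer was at 50% or more and the inner under 20%, with medians of 91.7% and 3.41%. Of 6 such pairs at the other end, 6 did so (88.8% and 4.00%). Inside the runs 9 of 163 such pairs had a member under 20% (5.52%). The rest of the chromosome had the same feature, with 167 of 211 first pairs and 196 of 235 last pairs, against 2.81% inside. The differences of 19p12 and 19q13.41 from the matched positions kept their direction when the first and last 2 positions of each run were left out.

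The study asked how methylation relates to anxious temperament, and for the level of the clusters no relation passed correction. The level of 19q13.12 had the largest correlation with the score, r = -0.416 (permutation p = 0.0471, adjusted p = 0.885 over 21 relations) and Spearman rho = -0.413 (permutation p = 0.0505, adjusted p = 0.426), over 23 monkeys. Left 11, the monkey with the highest score, had the lowest level, and r was -0.245 without it and -0.240 without both Left 11 and Right 4. Identifiers of the monkeys begin with r in 12 and B in 11, for a reason the labels do not give, and within these series the values were -0.184 and -0.545. Adjusted for age, the slope was -0.489 points per score unit ± 0.238 (SE).

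The other clusters gave correlations with the score between -0.279 (19q13.41) and 0.136 (19q13.43). For 19q13.43 the r series gave 0.580 and the B series -0.281, which differ in sign. All clusters together gave r = -0.0553 (permutation p = 0.801), with 0.433 in the r series and -0.455 in the B series, again of opposite sign. Correlations with age ran from -0.0693 (19q13.43) to 0.318 (19q13.41), with adjusted p = 0.885 by permutation for both. No difference between left and right samples passed the test. In 19q13.12, 12 right samples averaged 41.3% ± 0.884 and 11 left samples 41.1% ± 0.954 (SD; permutation p = 0.547).

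**Figure D5:**
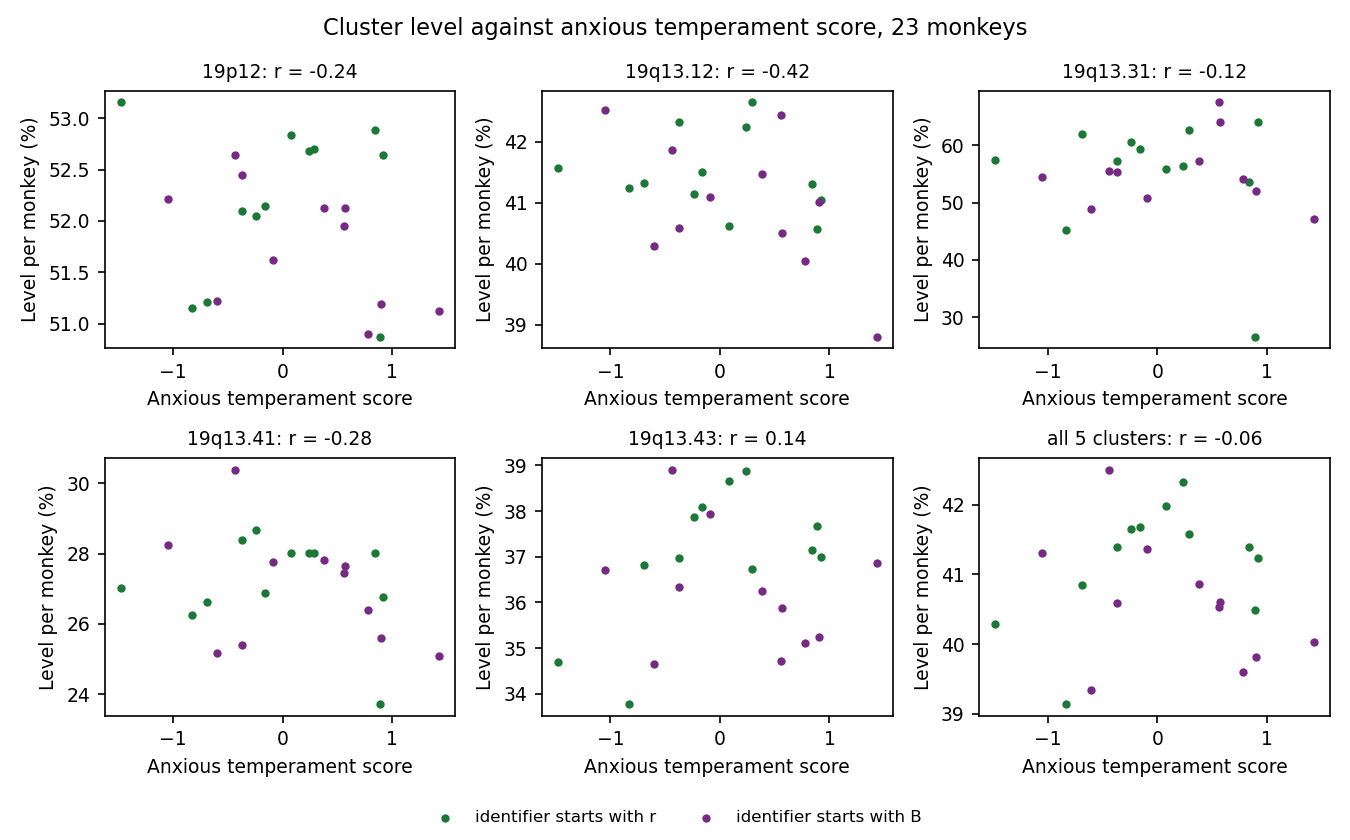
Level per monkey (vertical axes, %, with a separate range for each panel) against anxious temperament score (horizontal axes) in each cluster and in all 5 together, coloured by the first letter of the identifier. The 19q13.12 panel holds the largest correlation, r = -0.42, and its lowest point is the monkey with the highest score.

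Single positions were tested across the whole table with limma, with score and age as terms. Of the 1588 cluster positions, 760 were tested, those measured in 20 monkeys or more whose levels spanned 10 points or more. At an unadjusted p under 0.05, 32 of them passed (4.21%), 14 with a positive slope and 18 with a negative one, where 3.12% of all 192151 tested positions did. At an adjusted p under 0.05, 0 of the 760 passed and 0% of all positions. By cluster, the count at the unadjusted threshold was 12 of 197 in 19p12, 8 of 136 in 19q13.12, 0 of 6 in 19q13.31, 3 of 59 in 19q13.41 and 9 of 362 in 19q13.43.

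The 5 cluster positions with the smallest p for the score had an adjusted p of 1 in limma. Position 23072042 in 19p12 ran from 35% (Right 4) through 65.5% to 87% (Left 11), the monkeys with the lowest and highest scores, with a slope of 10.5 points for each unit of the score ± 2.94 (SE). Position 58907869, within the 108-position run of 19q13.43, ran from 0 (Right 3, Right 4, Right 5 and Right 11) through 31% to 100% (Left 6), with a slope of 17.8 ± 5.58 (SE). Position 59027943 in 19q13.43 had a slope of 11.2 ± 3.61, position 36653841 in 19q13.12 one of 5.35 ± 1.55, and position 20830514 in 19p12 one of -11.9 ± 3.92 (SE).

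Runs gave a similar count. Of 123 cluster runs of at least 3 positions 73 were tested, and 4 passed at an unadjusted p under 0.05 (5.48%), where 3.2% of all 21253 tested runs did; 0 passed after adjustment, and 0% of all runs. The smallest p was that of the 6-position run at chr19:59027908-59028015, which holds position 59027943. It ran from 44.0% (Left 4) through 55.5% to 59.8% (Left 7), with a slope of 3.16 points for each unit of the score ± 1.14 (SE; limma p = 0.0108, adjusted p = 1). Next, chr19:58883339-58883377 had a slope of 15.5 ± 6.66 (SE) on the plain means used for these tests. Left 3, Left 11 and Right 12 stood at 100% there, each with a value at 1 of its 4 positions, and the other monkeys ran from 11.8% (Left 10) to 34.3% (Left 9). With run means centred on the position means, an alternative added after the values were seen, the slope was 2.10 ± 1.42 (SE; limma p = 0.151, adjusted p = 1). The other runs at that threshold lay in 19q13.41 and had negative slopes, -5.30 ± 2.35 at chr19:52860669-52860694 and -2.32 ± 1.05 at chr19:53513447-53513628 (SE). The run with the next smallest p, chr19:57839713-57839961, had a slope of 3.07 ± 1.505 (SE) and did not pass. Centred means turned it to -1.02 ± 1.41 (SE).

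For age 35 of the 760 cluster positions passed at an unadjusted p under 0.05 (4.61%), where 4.06% of all tested positions did, and 1 passed after adjustment, where 0.0531% of all positions did. That position, 37158803 in the 36-position run of 19q13.12, stood at 43% in Left 1, the oldest monkey, and between 90% and 100% in the 20 other monkeys with values. Its slope was -41.4 points per year ± 7.40 (SE; limma adjusted p = 0.0312), and -0.378 without Left 1, so the call rested on that monkey. Left 1 was also the extreme at position 57946965, at 17% where the others were at 0 to 3%, and at position 58718332, at 60% where the others were at 76 to 100% (limma adjusted p = 0.0642 and 0.28).

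For hemisphere 23 of the 760 positions passed at an unadjusted p under 0.05 (3.03%), where 3.48% of all did. Of the 23, 19 were higher on the right and 4 on the left. The split by side was not counted over all positions, so whether it is particular to the clusters is unknown. After adjustment 0 passed in limma, with 0% of all positions, and the smallest adjusted p was 0.93. Position 37158752, again in the 36-position run of 19q13.12, averaged 40.5% ± 5.48 in 11 left samples and 56.9% ± 8.94 (SD) in 12 right samples. The left samples ran up to 49%, and 2 right samples, Right 6 at 39% and Right 8 at 45%, fell within their range. Position 19763482 in 19p12 averaged 83.6% ± 8.98 on the left and 95.8% ± 7.09 on the right, and position 58718307 in 19q13.43 80.9% ± 22.1 and 98.8% ± 1.66 (SD).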

How the data were processed

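Reduced representation bisulfite sequencing libraries of 23 monkeys (11 left, 12 right hemisphere samples) were analysed. The authors deposited the methylation level of each position and monkey as a fraction. Bismark 0.11.1 and the build hg19 are named in the submitters' processing notes; coverage filters: not given in the sources used here. Monkey reads were placed on human coordinates, and sites that differ between the species were not identified. No depth is given, so no interval was computed, and a higher coverage minimum was not run.

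Fractions were multiplied by 100. A monkey's level over a set is the mean of the position means plus its mean deviation from them. Density bins were 0 to 4, 5 to 9, 10 to 19, 20 to 39 and 40 or more measured positions within 100 bp. Differences were tested by 2-sided sign-flip permutation over monkeys and relations by permutation (100000 resamples, seed 1), with Benjamini-Hochberg adjustment over 6 cluster comparisons or 21 relations. Positions and plain run means were fitted over the whole table with limma 3.58.1 (R 4.3.3; trend, empirical Bayes), with score and age as terms, and hemisphere added for its own test; runs needed a range of 5 points or more. Each fit dropped the monkeys without a value. The code was tested on simulated data. Python 3.11.15, numpy 2.4.6 and pandas 2.3.3 were used for the rest.

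The clusters, runs and lists were chosen with earlier results of these data known. Positions and runs are named by rule: the smallest p (5 positions and 5 runs for the score, 3 positions for age and 3 for hemisphere), the largest run of each cluster, and, in groups of 5, the highest mean (20 or more positions), the most positions among means of 20 to 80%, and the widest range. The like-spaced pairs, the wide positions and the low runs were chosen after their values were seen. Levels by gene part were not run, as no annotation of hg19 was used here. Alternatives were complete positions, plain means, density within 250 bp or unmatched, merged CpGs, other autosomes, a logit scale, no range filter, the identifier series, and omitted libraries.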

Additional observations from a re-analysis of the deposited data

How the results depend on the processing

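The differences of 19p12, 19q13.31 and 19q13.41 from the matched positions kept their direction and their side of the threshold in every alternative run. So did the higher level of positions spaced by 84 bp and, with the differences, the gap between 19p12 and 19q13.41. The 19q13.31 cluster had 0 positions with a value in all monkeys, so that alternative left it out. For the score, 28 to 48 positions passed before adjustment in the alternatives, against 32 in the main fit, and 0 after it. When each monkey was left out in turn, 24 (without Right 4) to 40 (without Left 4) passed before adjustment. Over the positions with a value in all monkeys, the pooled difference was -3.88 points and that of 19q13.43 -2.50, while the spread difference rose to 0.206 and passed its test. There the correlations reversed to -0.508 for 19p12 with age, -0.0735 for 19q13.41 with age, -0.0385 for 19q13.43 with the score, 0.0675 for 19q13.43 with age and 0.0263 for the pooled difference with age, and the right minus left difference of 19p12 was 0.426 points. With plain means, 19q13.12 no longer passed (0.477 points) and 19q13.43 was at -0.459. Correlations with the score were then 0.0198 for all clusters and 0.155 for their difference from the rest, that of 19q13.43 with age 0.128, and the right minus left differences 0.0736 points for all clusters, 0.709 for 19p12, -0.816 for 19q13.41 and 0.406 for the pooled difference. The 19q13.43 difference was -1.29 points with density within 250 bp, -1.66 with no density matching, 2.07 with merged CpGs (past the threshold), 12.9 against other autosomes (past the threshold) and -6.53 without the 3 largest runs, an alternative chosen after seeing the data, where the pooled difference was -0.515. With merged CpGs the 19q13.12 difference was -1.58 and the spread difference 0.338, past its threshold. Against other autosomes the dense share differed by 5.22 points. Without Left 3 and Right 9 the spread difference was 0.354. The cause of these shifts was not tested.

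In limma on the logit scale, 23 positions passed for age before adjustment and 0 after it. Without the range filter 2 passed after adjustment, and 0 did once the identifier series was a covariate. Without Left 3 and Right 9, 61 passed for age before adjustment and 2 after it, and 36 for hemisphere before adjustment. When each monkey was left out in turn, the count for age ran from 24 (without Left 1) to 54 (without Left 3) before adjustment and from 0 (without Left 1) to 2 after it. The count for hemisphere ran from 20 to 37 (without Right 3), and that of runs for the score from 2 (without Left 4) to 5. Correlations with the score ran from -0.185 to 0.0313 for all clusters and from -0.200 to 0.0988 for 19q13.31. That of the pooled difference with age ran from -0.201 to 0.0376. Right minus left differences ran from -0.253 to 0.0747 points for all clusters, -0.142 to 0.0646 for 19p12, -3.01 to 0.679 for 19q13.31 and -0.185 to 0.0311 for the pooled difference. Of 436 slopes of named positions and runs under the alternatives, 1 changed sign, that of chr19:57839713-57839961 for the score (-1.02 with run means centred on position means, added after seeing the data), and 3 lost and 3 gained a call, all for age. No paired analysis was possible because left and right samples came from different monkeys and their numbers only follow the order of the samples.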
